A study of Rattus norvegicus with 4 samples.

Results

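The 10 genes described here encode receptors and ligands with which blood cells hold on to vessel walls, to matrix and to each other: the integrin subunits Itgal, Itgax, Itgb2, Itga4, Itgb7, Itgb1 and Itga6, the selectin ligand Selplg, the integrin ligand Icam1 and the hyaluronan receptor Cd44. They were chosen by symbol in the deposited gene table, where each of the 10 has 1 row of its own among 25340 genes. There they carry the Ensembl identifiers ENSRNOG00000017980 (Itgal), ENSRNOG00000036703 (Itgax), ENSRNOG00000001224 (Itgb2), ENSRNOG00000004861 (Itga4), ENSRNOG00000012208 (Itgb7), ENSRNOG00000010966 (Itgb1), ENSRNOG00000001518 (Itga6), ENSRNOG00000000699 (Selplg), ENSRNOG00000020679 (Icam1) and ENSRNOG00000006094 (Cd44). Their levels were measured by single-cell RNA sequencing of rat blood, in 1 library per group. In the MSC-i.t group, rats with spinal cord injury (SCI) received umbilical cord mesenchymal stem cells (UC-MSCs) by the intrathecal route at 10000000 cells per kg. In the MSC-i.v group, injured rats received the same kind of cells by the intravenous route at 30000000 cells per kg. Both MSC groups were dosed 2 times, at 72 h and on day 7 after the injury. The SCI group is labelled by the injury alone, with no cell dose, and the injury was made by Allen's method, a weight-drop contusion. The Sham group is labelled only as sham, and the design text places all 40 rats of the study, 10 per group, under the injury, so how the sham rats were operated on is not given in the sources used here. Strain, age, sex, when blood was drawn and how many rats gave each library are also not given, and the deposited matrix of SCI is tagged Pre in its name, where the other 3 are tagged 24 h. The sources used here do not say what the tags refer to.

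Integrins are heterodimers of an alpha and a beta subunit that sit on the cell surface in a low-affinity state until signals from inside the cell, through talin and kindlin, switch them to high affinity. Itgal and Itgb2 form LFA-1, which binds ICAM family ligands such as Icam1 and arrests leukocytes on the vessel wall. Itga4 pairs with Itgb1 to bind VCAM-1 or with Itgb7 to bind MAdCAM-1 on vessels of the gut, and Itga6 pairs with Itgb1 to bind laminin of the basement membrane. Selplg, the P-selectin ligand PSGL-1, starts the rolling contact that comes before arrest. A subunit's transcript level does not give the amount of the assembled receptor at the cell surface.

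The sequences upstream of Icam1 and Itgb1 are shown because these members have contrasting patterns below: Icam1 stayed at or below 7.48 CPM (counts per 1000000 unique molecular identifiers, or UMIs, each counting 1 captured transcript) in the lymphocyte classes, while Itgb1 was found in each of the 7 classes. They come from RefSeq, assembly GRCr8, which has a promoter window for 6 of the 10 members, and they are written 5′ to 3′ on the + strand, with the Icam1 stretch at chr8:27829595-27829687 and the Itgb1 stretch at chr19:73602027-73602276. The Icam1 stretch is the 93 bases before the outermost annotated start, with capitals marking a NF-kB motif, GGAAATTCC. The Itgb1 stretch is the 250 bases before its start, with capitals marking a GC box, GGGGCGGGG.
Icam1: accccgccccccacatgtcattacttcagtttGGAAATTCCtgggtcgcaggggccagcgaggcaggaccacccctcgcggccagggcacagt
Itgb1: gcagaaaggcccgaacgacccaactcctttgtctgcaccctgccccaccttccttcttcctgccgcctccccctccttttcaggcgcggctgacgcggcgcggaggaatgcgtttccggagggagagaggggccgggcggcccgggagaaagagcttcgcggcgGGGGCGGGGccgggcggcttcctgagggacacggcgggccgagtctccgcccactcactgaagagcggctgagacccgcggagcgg
Searched on both strands, GGAAATTCC occurred in 111 of 33469 promoter windows of the table, or 0.332%, and among the 6 members with a window in Icam1 only. GGGGCGGGG occurred in 9.73% of windows, and among the members in Icam1 and Itgb1. In the Icam1 stretch shown, it lies on the other strand in the opening bases and is not in capitals. The marked letters overlap no other marked motif, and a match describes the letters only. In human cells the ICAM1 promoter is known for an NF-kB site through which inflammatory cytokines induce the gene.

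Barcodes with at least 500 UMIs and 200 genes were kept, 47436 in all. Of these, 20940 (44.1%) fell into 7 classes gated on marker genes, none of which is a member. The gates gave 2793 CD4 T cell, 8790 CD8 T cell, 708 NK cell, 6497 B cell, 857 classical monocyte, 886 nonclassical monocyte and 409 platelet barcodes, with 77 or more in each library and class. Many T cell barcodes held no UMI of Cd4, Cd8a or Cd8b and were left out. Library totals ran from 63133881 UMIs in SCI to 91124523 in MSC-i.v. The median UMIs per kept barcode were lowest in MSC-i.v, at 3764, and highest in SCI, at 5719. Levels are CPM, a gene's UMIs per 1000000 UMIs of the class in a library. Each pair of libraries shared 28 to 51 kept barcodes, against 13.3 to 28.4 by chance. Monocyte RNA outside cells was present: Lyz2, a monocyte lysozyme, stood in lymphocyte classes at 2.84% to 7.55% of its level in empty droplets. Lymphocyte barcodes with at least 2 monocyte markers detected, Lyz2 among the markers, had been left out as mixed, which lowers this share. In erythroid barcodes, no member exceeded 2.73 CPM. Hemoglobin made up 91.85% to 92.98% of their UMIs, which lowers the CPM of every other gene. That level is thus not a measure of free RNA in the other classes.

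Per UMI of a class, most members stood highest in monocytes: among the 6 leukocyte classes, 5 of the 10 had their highest mean in nonclassical monocytes and 3 in classical monocytes, where 41.6% of 9065 genes had theirs in either monocyte class. Monocytes were few, so lymphocytes held more UMIs of some members in all, with 5995 UMIs of Itga4 in CD8 T cells alone. The exceptions were Selplg, highest in NK cells, and Itga6, highest in CD4 T cells. With platelets included, Itga6 was highest there. Means and SDs below are over the 4 libraries, which differ in treatment, so the SD holds both the treatment and the library.

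**Figure D1:**
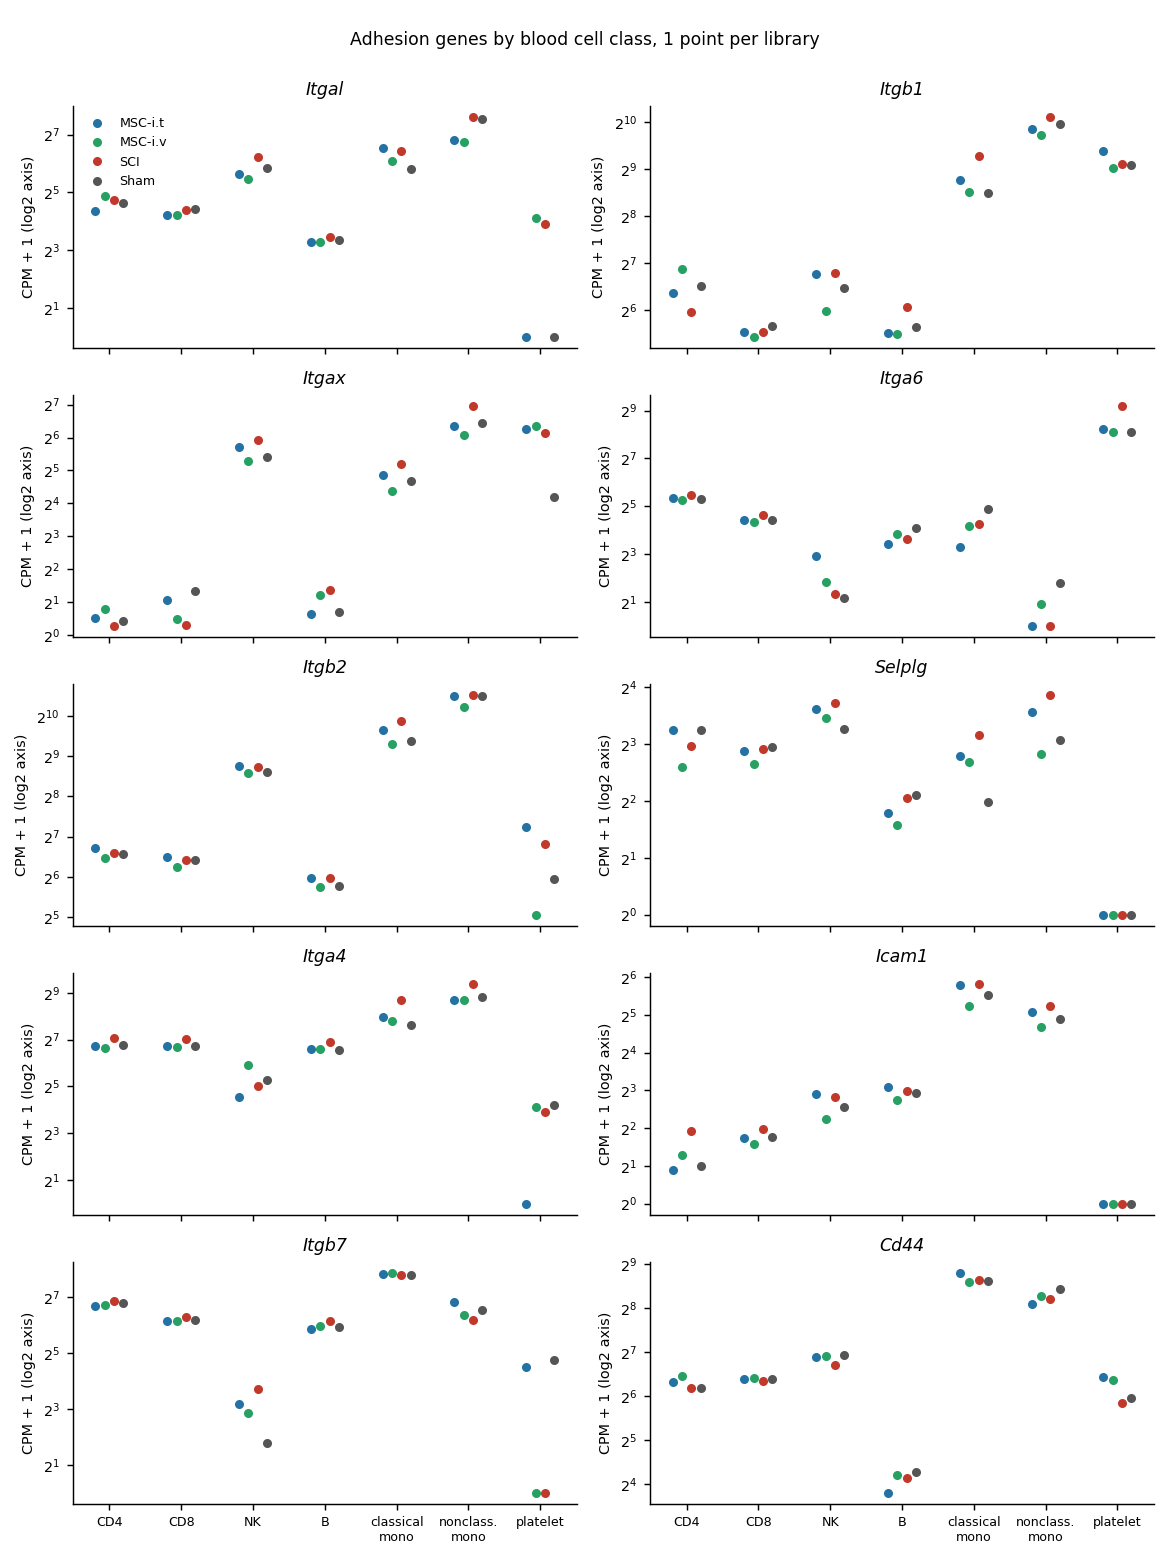
Level of each member (CPM + 1, log2 axis) in 7 blood cell classes, with 1 point per library. Itgb2 and Itgb1 lie highest in nonclassical monocytes in all 4 libraries, Itga6 in platelets, and Selplg and Icam1 are at 0 in platelets of every library.

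Itgb2, the beta subunit that the leukocyte integrins share, was the most abundant member in nonclassical monocytes, at 1440.0 CPM in the MSC-i.t library, 1190.1 in MSC-i.v, 1473 in SCI and 1436 in Sham. In classical monocytes it stood at 798 CPM in the MSC-i.t library, 628 in MSC-i.v, 942 in SCI and 664 in Sham. No classical value reached the lowest nonclassical value. NK cells followed at 382 to 428 CPM, above every value in CD4 T cells (87.1 to 104 CPM), CD8 T cells (75.1 to 89.6 CPM) and B cells (52.6 to 62.1 CPM). Platelet values, 32.4 to 150.2 CPM, overlapped those of CD4 and CD8 T cells and rested on 31 UMIs in all. With every barcode thinned to 1000 UMIs, Itgb2 was detected in 69.9% to 74.7% of nonclassical monocyte barcodes and 8.48% to 10.01% of CD4 barcodes, against 0% to 0.218% of erythroid barcodes. Without thinning, those shares were 95.8% to 100%, 29.3% to 44.5% and 0.662% to 2.37%, with median depths of 2803 to 4159 UMIs in nonclassical, 3711 to 5891 in CD4 and 8129 to 11880 in erythroid barcodes. Hemoglobin made up most UMIs of erythroid barcodes, with or without thinning, so their shares are no background at equal depth.

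Itgal, the alpha subunit of LFA-1, had the same order of leukocyte classes at lower levels. It reached 112 CPM in the MSC-i.t library, 107 in MSC-i.v, 196 in SCI and 184 in Sham in nonclassical monocytes, which puts SCI and Sham together above both MSC libraries. Classical monocytes averaged 74.5 ± 16.6 CPM and NK cells 55.2 ± 13.2 CPM, with overlapping ranges. CD4 T cells (24.3 ± 3.63 CPM) and CD8 T cells (18.8 ± 1.49 CPM) also overlapped, and B cells were lower at 9.15 ± 0.617 CPM (SD, n = 4 libraries for each class). Itgal was detected in 2 UMIs over all platelet barcodes.

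Itgax, the CD11c alpha subunit known from myeloid and dendritic cells, split the classes into those with the transcript and those near the background. It stood at 81.3 CPM in the MSC-i.t library, 66.1 in MSC-i.v, 124 in SCI and 86.7 in Sham in nonclassical monocytes and at 51.7 CPM in the MSC-i.t library, 37.7 in MSC-i.v, 59.3 in SCI and 41.8 in Sham in NK cells. Classical monocytes held 19.8 to 35.7 CPM, below each NK value. The CD4, CD8 and B classes held 6, 43 and 19 UMIs in all libraries together and did not exceed 1.57 CPM. The 19 UMIs in platelet barcodes gave 75.1 CPM in the MSC-i.t library, 80.97 in MSC-i.v, 70.1 in SCI and 17.3 in Sham, a level set by few counts per library.

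Itga4 was the most even of the alpha subunits across lymphocytes. It stood at 417 CPM in the MSC-i.t library, 407 in MSC-i.v, 667 in SCI and 449 in Sham in nonclassical monocytes and at 247 CPM in the MSC-i.t library, 219 in MSC-i.v, 413 in SCI and 194 in Sham in classical monocytes, with the SCI library highest in both. CD4 T cells averaged 111 ± 15.9 CPM, CD8 T cells 110.5 ± 12.2 CPM and B cells 101 ± 11.2 CPM (SD, n = 4 libraries), and these ranges overlapped between neighbours. NK cells were lower, at 22.6 CPM in the MSC-i.t library, 60.2 in MSC-i.v, 31.9 in SCI and 38.1 in Sham, with no overlap with B cells. Platelets held 4 UMIs in all.

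The beta partners of Itga4 divided the classes differently. Itgb7 was highest in classical monocytes, at 226 CPM in the MSC-i.t library, 235 in MSC-i.v, 224 in SCI and 224 in Sham, a span narrower than for any other member in that class relative to its mean. CD4 T cells held 103 CPM in the MSC-i.t library, 105 in MSC-i.v, 117 in SCI and 112 in Sham. Nonclassical monocytes (71.7 to 114 CPM) overlapped CD4 and CD8 T cells (69.4 to 78.5 CPM), and B cells stood at 57.4 to 70.6 CPM. NK cells had 20 UMIs in all, at 2.46 to 12.2 CPM, where empty droplets held 46.8 to 59.2 CPM.

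Itgb1, the beta subunit shared by the matrix-binding integrins, stood at 918 CPM in the MSC-i.t library, 847 in MSC-i.v, 1103 in SCI and 994 in Sham in nonclassical monocytes. Platelets followed at 665 CPM in the MSC-i.t library, 518 in MSC-i.v, 547 in SCI and 544 in Sham and classical monocytes at 432 CPM in the MSC-i.t library, 364 in MSC-i.v, 615 in SCI and 357 in Sham, and these last ranges overlapped. NK and CD4 T cells were near each other at 92.2 ± 21.9 CPM and 87.5 ± 23.3 CPM, as were B and CD8 T cells at 51.2 ± 10.2 CPM and 45.8 ± 2.89 CPM (SD, n = 4 libraries). In CD4 T cells the libraries spread from 61.04 to 117 CPM, with SCI lowest and MSC-i.v highest.

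Of the UMIs of Itgb7 and Itgb1 together, Itgb7 held 59.2% to 63.2% in CD8 T cells, 51.6% to 58.2% in B cells and 47.3% to 65.7% in CD4 T cells over the 4 libraries. The share was 26.7% to 39.2% in classical monocytes, 6.11% to 11.02% in nonclassical monocytes, 2.7% to 10.00% in NK cells and 0% to 4.55% in platelets. The ranges of the 3 T and B classes lay above those of the other 4 classes in every library. UMIs are not corrected for transcript length or capture, so the share compares classes and is not a ratio of the proteins.

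**Figure D2:**
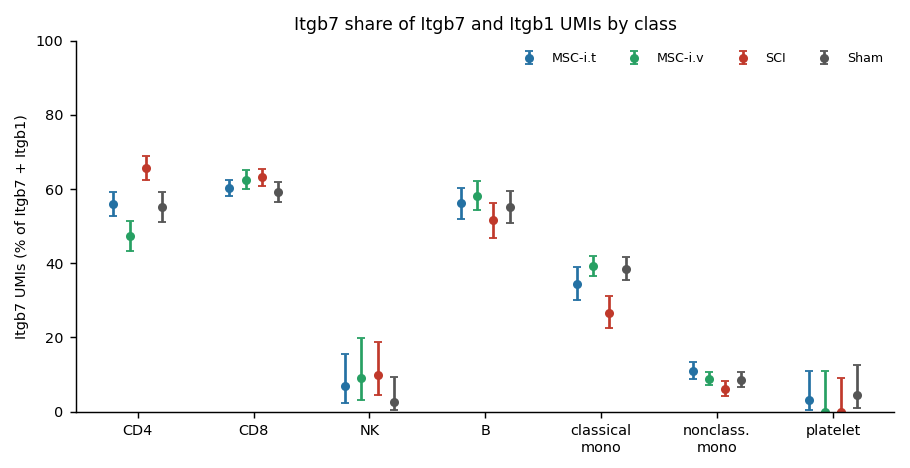
Share of Itgb7 in the UMIs of Itgb7 and Itgb1 together (%), by class, with 1 point per library and exact Clopper-Pearson 95% intervals that cover counting error only. CD4, CD8 and B cells lie between 47.3% and 65.7%, classical monocytes between 26.7% and 39.2%, and NK cells, nonclassical monocytes and platelets at or below 11.02%.

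Itga6 was the member of platelets, at 300.4 CPM in the MSC-i.t library, 275 in MSC-i.v, 589 in SCI and 276 in Sham, on 119 UMIs in all. The SCI library stood above the other 3, which lay close together. CD4 T cells held 40.02 CPM in the MSC-i.t library, 37.3 in MSC-i.v, 42.7 in SCI and 37.97 in Sham, above CD8 T cells at 19.1 to 23.9 CPM without overlap. Classical monocytes (17.98 ± 7.9 CPM) and B cells (12.6 ± 2.74 CPM, SD, n = 4 libraries) overlapped. Nonclassical monocytes held 3 UMIs in all, and none in the MSC-i.t and SCI libraries. A count of 0 allows a level of up to 3 UMIs, which is 4.06 CPM in MSC-i.t nonclassical monocytes and 5.82 CPM in those of SCI.

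Selplg was low throughout, from 2.71 ± 0.624 CPM in B cells to 10.5 ± 1.55 CPM in NK cells, and the ranges of each pair of neighbouring leukocyte classes overlapped. Platelet barcodes held no Selplg or Icam1 UMI in any library, which by the same limit allows up to 25.9 to 48.6 CPM, depending on the library, so a level like that of lymphocytes was not detectable at this depth. Icam1 was highest in classical monocytes, at 54.4 CPM in the MSC-i.t library, 36.5 in MSC-i.v, 55.5 in SCI and 45.1 in Sham, and stood at 24.4 to 36.8 CPM in nonclassical monocytes. B cells held 5.73 to 7.48 CPM, NK cells 3.77 to 6.47 CPM, CD8 T cells 1.97 to 2.92 CPM and CD4 T cells 0.842 to 2.77 CPM.

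Cd44, which binds hyaluronan and is known to be raised on antigen-experienced T cells, was highest in classical monocytes, at 445 CPM in the MSC-i.t library, 386 in MSC-i.v, 399 in SCI and 391 in Sham. Nonclassical monocytes followed at 274 to 345 CPM and NK cells at 118 CPM in the MSC-i.t library, 119 in MSC-i.v, 103 in SCI and 120.4 in Sham. CD8 T cells varied little between libraries, at 82.95 CPM in the MSC-i.t library, 83.4 in MSC-i.v, 79.6 in SCI and 82.9 in Sham. B cells stood apart at the low end, at 12.9 to 18.2 CPM, below each value of the other classes.

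Class contrasts were tested with edgeR's quasi-likelihood test on UMIs summed per library and class, with library as a block, and p-values were adjusted by Benjamini-Hochberg over all 9166 genes tested. All 10 members passed the filter on low counts. A gene was called at an adjusted p below 0.05. Values below are log2 fold changes with standard errors derived from the test, as the absolute log2 fold change over the square root of its F statistic.

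CD8 T cells differed from CD4 T cells in 4 of the 10 members, where 16.7% of all genes tested were called. Itga6, the laminin receptor subunit (log2 fold change -0.81 ± 0.10, adjusted p = 1.46e-08), Itgb1 (-0.79 ± 0.12, adjusted p = 5.26e-06) and Itgb7 (-0.48 ± 0.08, adjusted p = 6.42e-06) were lower in CD8. Cd44 was called higher by a small margin (log2 fold change 0.2 ± 0.07, adjusted p = 0.0384), and this call was lost under each of 8 alternatives, among them DESeq2, the fit without a library block and leaving out any library. Of the other adhesion and signalling genes on a fixed list of 50, of which 46 were in the gene table and 39 passed the filter, 7 were higher and 6 lower, with a median log2 fold change of -0.04 against 0.02 over all genes. The largest were Itgad, another alpha partner of Itgb2 (3.95 ± 0.81), the sialyltransferase St3gal6 (1.39 ± 0.26) and the tyrosine sulfotransferase Tpst1 (1.29 ± 0.40), both of which modify selectin ligands. Cyth1, which binds the beta2 tail (-0.52 ± 0.08), Cd99 (-0.42 ± 0.12) and the cytohesin binding protein Cytip (-0.38 ± 0.05) were lowest.

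NK cells differed from CD8 T cells in 7 of the 10 members, with 4 higher and 3 lower and with 36.7% of all genes called. Itgax (log2 fold change 5.44 ± 0.28, adjusted p = 1.02e-19), Itgb2 (1.88 ± 0.07, adjusted p = 3.36e-25) and Itgal (1.13 ± 0.17, adjusted p = 6.62e-07), subunits of the leukocyte integrins, were higher. Itgb7 (log2 fold change -3.79 ± 0.22, adjusted p = 1.86e-18), Itga6 (-3.32 ± 0.38, adjusted p = 1.75e-09) and Itga4 (-1.89 ± 0.15, adjusted p = 8.24e-14) were lower. Itgb1 was higher (log2 fold change 0.57 ± 0.18, adjusted p = 0.0101), at 0.50 and no longer called without the MSC-i.t library. On the list, 17 of 39 were higher and 9 lower, with a median of 0.30 against -0.05 over all genes. Itgad (5.96 ± 0.19), the collagen receptor subunit Itga1 (5.44 ± 0.43) and vinculin, Vcl (3.43 ± 0.24), were highest. P-selectin, Selp (-4.03 ± 0.59), the T cell integrin adaptor Skap1 (-1.67 ± 0.10) and Cyth1 (-1.5 ± 0.20) were lowest.

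B cells were lower than CD4 T cells for 8 of the 10 members and higher for Icam1, with 54.7% of all genes called. Cd44 had the largest difference (log2 fold change -2.5 ± 0.09, adjusted p = 7.97e-25), followed by Itga6 (-1.88 ± 0.13, adjusted p = 2.04e-16), Selplg (-1.68 ± 0.23, adjusted p = 4.02e-08) and Itgal (-1.61 ± 0.16, adjusted p = 2.04e-11). Itgb7, Itgb1 and Itgb2 were lower by 1.06, 1.02 and 0.97 on the log2 scale. Itga4 was the least changed of the 8 (log2 fold change -0.38 ± 0.09, adjusted p = 4.73e-04), a call lost without the library block at -0.39. Icam1 was higher in B cells (log2 fold change 1.88 ± 0.26, adjusted p = 6.02e-08). The list had 10 members higher and 19 lower, with a median of -0.07 against 0.02 over all genes. Tpst1 (5.49 ± 0.23), St3gal6 (4.31 ± 0.19) and the fucosyltransferase Fut4 (4.3 ± 0.32), enzymes that build selectin ligands, were highest. Skap1 (-5.65 ± 0.11), the adhesion receptor Cd2 (-4.71 ± 0.10) and Fut7, the other fucosyltransferase of selectin ligands (-3.58 ± 0.55), were lowest.

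Nonclassical monocytes, which patrol the vessel wall, differed from classical monocytes, which enter inflamed tissue, in 9 of the 10 members, with 26.5% of all genes called. Higher were Itgax (log2 fold change 1.54 ± 0.20, adjusted p = 3.87e-08), Itgb1 (0.98 ± 0.12, adjusted p = 9.66e-09), Itgal (0.84 ± 0.13, adjusted p = 2.94e-06), Itga4 (0.71 ± 0.10, adjusted p = 1.94e-07) and Itgb2 (0.69 ± 0.06, adjusted p = 2.02e-12). Lower were Itga6 (log2 fold change -4.57 ± 0.57, adjusted p = 2.13e-08), Itgb7 (-1.55 ± 0.11, adjusted p = 1.55e-14), Icam1 (-0.84 ± 0.17, adjusted p = 1.39e-04) and Cd44 (-0.59 ± 0.08, adjusted p = 4.36e-08). The Itga6 value rests on 3 nonclassical UMIs, so its size is uncertain. On the list, 13 were higher and 10 lower, with a median of 0.00 in both the list and all genes. Spn, or CD43 (1.4 ± 0.08), Itgav (0.93 ± 0.32) and Cd48 (0.71 ± 0.06) were highest. Cd226 (-2.24 ± 0.45) and the fibronectin receptor subunit Itga5 (-1.7 ± 0.30) were among the lowest.

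Monocytes as a whole were higher than the mean of the 4 lymphocyte classes for 8 of the 10 members and lower for 1. Of all 9166 genes, 3281 were higher and 3528 lower. Calls in either direction took 74.3% of all genes, so the 9 member calls are near the background in number. The median log2 fold change was 2.28 for the members and -0.07 over all genes. Among the 8 higher members, log2 fold changes ranged from 1.64 ± 0.09 for Itgb7 to 4.46 ± 0.19 for Itgax. Itga6 was lower (log2 fold change -1.67 ± 0.40, adjusted p = 2.89e-04), and Selplg was not called (log2 fold change 0.09 ± 0.21, adjusted p = 0.747). On the list, 23 were higher and 9 lower, with a median of 0.71 against -0.07 over all genes. Itga5 (7.16 ± 0.41), Fut4 (3.63 ± 0.30) and Itgad (3.55 ± 0.23) were highest, and St3gal6 (-6.25 ± 0.54), the collagen receptor subunit Itga2 (-5.58 ± 1.21) and Skap1 (-4.16 ± 0.15) were lowest.

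**Figure D3:**
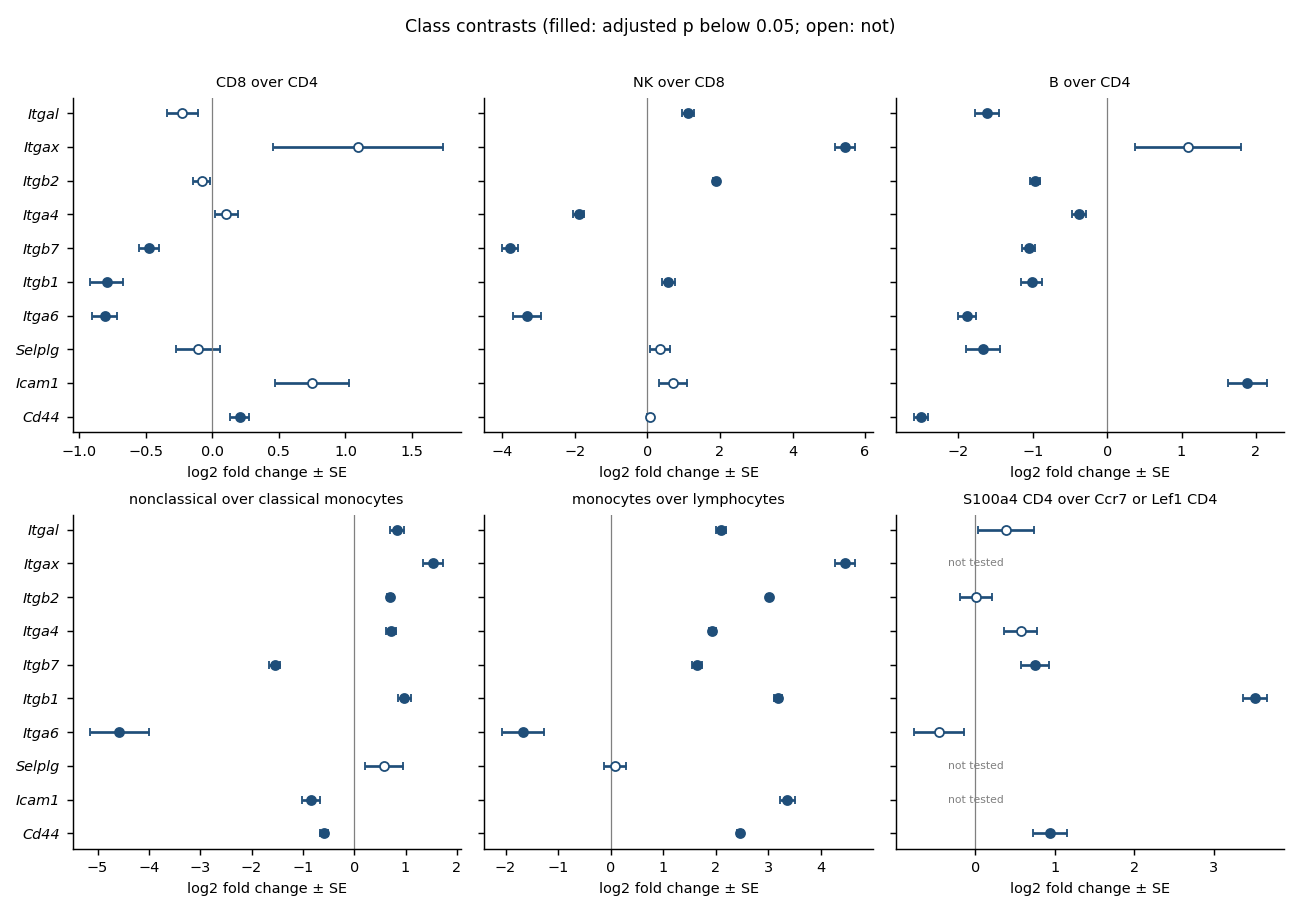
Log2 fold change of each member in the 6 class contrasts, with bars of 1 standard error derived from the F statistic of the test. Filled points were called at an adjusted p below 0.05 (edgeR quasi-likelihood test). Itgb7 and Itga6 lie left of 0 in NK over CD8 while Itgax, Itgb2 and Itgal lie right of it, and Itgb1 stands far right in S100a4 CD4 cells at 3.52.

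CD4 T cells themselves held very different amounts of Itgb1. CD4 barcodes with S100a4, a calcium-binding protein known from memory T cells, and without Ccr7 or Lef1 were set against those with Ccr7 or Lef1, genes of naive T cells, and without S100a4. Itgb1 stood at 542 CPM in MSC-i.t, 581 in MSC-i.v, 447 in SCI and 509 in Sham in the S100a4 barcodes. It stood at 43.9 CPM in MSC-i.t, 46.3 in MSC-i.v, 27.6 in SCI and 50.2 in Sham in the Ccr7 or Lef1 barcodes, so the lowest S100a4 value was above every value of the other subset. The log2 fold change was 3.52 ± 0.15 (edgeR, adjusted p = 1.27e-15).

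The members tested in these CD4 subsets numbered 7, of which 3 were higher in S100a4 barcodes and none lower, with 7.85% of the 5538 genes tested called. Itgax, Selplg and Icam1 did not pass the filter. Cd44 stood at 172 CPM in MSC-i.t, 116 in MSC-i.v, 197 in SCI and 101 in Sham in S100a4 barcodes and at 68.9 CPM in MSC-i.t, 78.9 in MSC-i.v, 61.99 in SCI and 64.8 in Sham in Ccr7 or Lef1 barcodes (log2 fold change 0.94 ± 0.21, adjusted p = 0.00412). Cd44 was higher in S100a4 barcodes in 4 of 4 libraries, and its call was lost without the SCI library, at 0.73, and without the MSC-i.t library, at 0.82. Itgb7 averaged 187 ± 48.8 CPM in S100a4 barcodes and 101 ± 5.22 CPM in Ccr7 or Lef1 barcodes (SD, n = 4 libraries; log2 fold change 0.75 ± 0.18, adjusted p = 0.00645), a call lost without the Sham library, at 0.58. Itga4 spread widely in S100a4 barcodes, at 185 CPM in MSC-i.t, 122 in MSC-i.v, 356 in SCI and 88.8 in Sham, and was not called (log2 fold change 0.57 ± 0.21, adjusted p = 0.0945), although it was without the Sham library, at 0.80. Itgb2, which monocytes hold in large amounts, stood at 106 ± 26.97 CPM in S100a4 barcodes and 94.8 ± 6.36 CPM in Ccr7 or Lef1 barcodes (log2 fold change 0.01 ± 0.20, adjusted p = 0.994).

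All 8 monocyte markers were in the gene table, and summed they gave 22.7 to 148 CPM in S100a4 barcodes and 64.5 to 187 CPM in Ccr7 or Lef1 barcodes, higher with S100a4 in 1 of 4 libraries. T cell barcodes with at least 2 of these markers detected had been left out as mixed, so the gate itself holds these sums low. The 10 platelet markers summed to 22.7 to 385 CPM in S100a4 barcodes and 36.9 to 141 CPM in the other subset. They were higher with S100a4 in 3 of 4 libraries. In platelet barcodes the same markers summed to 62064 to 75237 CPM, beside 518 to 665 CPM of Itgb1. Without the CD4 barcodes holding any platelet marker UMI, left out after seeing the data, Itgb1 stood at 448 to 668 CPM in S100a4 barcodes and 27.2 to 47.99 CPM in the others (log2 fold change 3.57), and Cd44 was still called, at 1.05. Itgb7 was then no longer called, at 0.42, and Itga4 was, at 0.72. The 3 markers of plasmacytoid dendritic cells, which also carry Cd4, were all in the gene table. In S100a4 barcodes they summed to 343 CPM in MSC-i.t, 17.4 in MSC-i.v, 334 in SCI and 0 in Sham, where a count of 0 allows up to 17.8 CPM, and in Ccr7 or Lef1 barcodes to 8.94 to 14.6 CPM. The 2 libraries in which they were high are the 2 on which the Cd44 call rested. There, 1 barcode held 49 of the 50 marker UMIs in MSC-i.t and 1 held 42 of 44 in SCI. Without barcodes with at least 2 of these markers detected, which removed those 2 barcodes and was also chosen after seeing the data, the log2 fold change was 3.57 for Itgb1, 1.00 for Cd44 and 0.79 for Itgb7, all called, and 0.61 for Itga4, not called. On the adhesion list, 4 of the 26 genes tested were higher and 3 lower, with a median of 0.08 against -0.02 over all genes. Cd99 (2.54 ± 0.22), Tpst2, the other tyrosine sulfotransferase (1.68 ± 0.28), and Cd47 (0.8 ± 0.14) were highest, and Cd226 (-1.47 ± 0.40) and Cyth1 (-1.3 ± 0.35) were among the lower ones. The S100a4 subset was small, with 24 barcodes in MSC-i.t, 41 in MSC-i.v, 18 in SCI and 28 in Sham.

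**Figure D4:**
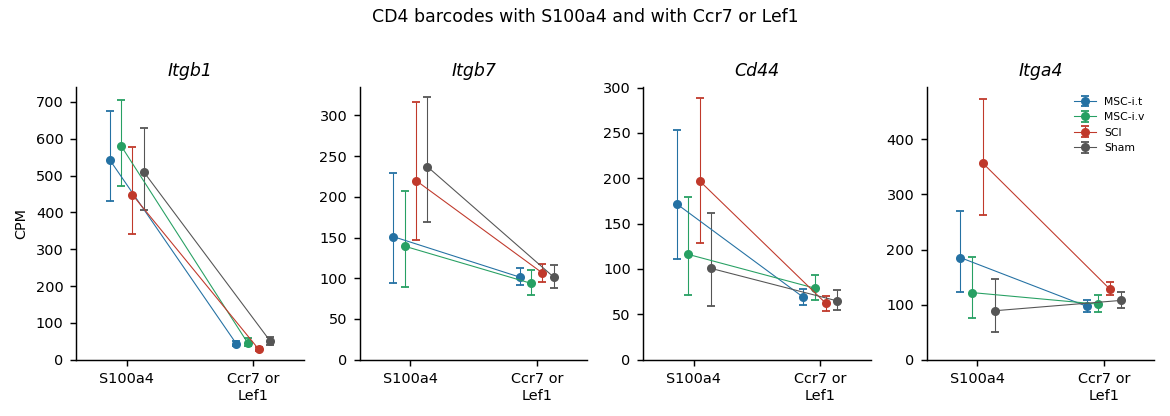
Level (CPM) of Itgb1, Itgb7, Cd44 and Itga4 in CD4 barcodes with S100a4 (left) and with Ccr7 or Lef1 (right), with 1 point and 1 line per library and exact Poisson 95% intervals that cover counting error only. Itgb1 is at or above 447 CPM on the left and at or below 50.2 CPM on the right in all 4 libraries.

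Genes whose profile over the 24 sums of leukocyte classes and libraries was among the most like that of a member, by Pearson's r of log2(CPM + 1) among 6106 genes, were Bin2 (0.97) for Itgal, Cd244 (0.98) and Lpar1 (0.98) for Itgax, Bcl2a1 (0.99) and Ywhab (0.99) for Itgb2, and Shisa5 (0.97) and Dse (0.95) for Itga4. They were Ly6e (0.93) and Rilpl2 (0.88) for Itgb7, Ifit2 (0.99) and Evi2b (0.98) for Itgb1, and Adam19 (0.88) and Borcs7 (0.86) for Itga6. For the ligands and Cd44 they were Clk2 (0.90) and Spata13 (0.88) for Selplg, Atp6v1b2 (0.98) and Serinc3 (0.97) for Icam1, and Reep5 (0.98) and Vsir (0.98) for Cd44. The sums share libraries and depth, and the likeness is a description.

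Between libraries there is no test, since each group has 1 library. A member was called in a class where its CPM differed at least 2-fold with the exact 95% interval of the ratio clear of 1, with at least 50 UMIs over both libraries. The intervals cover counting error only, and each ratio sets a library against another, not a condition against another. In a class sum, more cells with a transcript and more transcript per cell cannot be told apart. The SCI library stood apart from the other 3: in leukocyte classes log2 ratios over genes had an SD of 0.46 to 0.57 in comparisons with SCI and 0.26 to 0.40 in those without it. Against Sham, injury, library and the Pre tag of the deposited SCI matrix cannot be told apart. The MSC libraries are also from injured rats. Against them, the lack of a cell dose, the library and the tag cannot be told apart. The 3 comparisons with SCI share that library, so they are not independent of each other.

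For SCI over Sham, 2 of 49 pairs of member and class were called, both higher, with 5.21% of all pairs of gene and class called. Smaller differences included, the interval was clear of 1 in 12 pairs, 11 higher and 1 lower, where 27.1% of all pairs had an interval clear of 1, 6202 higher and 2890 lower. The share of the members is thus near the background by either rule. Itga4 in classical monocytes was 413 CPM in SCI, against 194 in Sham (log2 ratio 1.09, 95% interval 0.83 to 1.34). The median log2 ratio over all genes in that class was 0.13, and scaled by that median the Itga4 log2 ratio was 0.96, short of the 2-fold line. Summed markers of neutrophils, of which 5 of 5 were in the gene table, stood at 448 CPM in SCI classical monocytes and 2366 CPM in Sham. Their part in the result was not tested. Itga6 in platelets was 589 CPM in SCI, against 276 in Sham, on 42 and 32 UMIs (log2 ratio 1.09, 95% interval 0.39 to 1.8).

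Smaller differences included, Itga4 was highest in SCI in 5 of 6 leukocyte classes. For other members, in classes with enough UMIs, this ran from 0 of 6 for Cd44 and 0 of 3 for Selplg to 3 of 3 for Itgax. The Itga4 log2 ratio of SCI over Sham was 0.57 (95% interval 0.35 to 0.79) in nonclassical monocytes and 0.34 (0.14 to 0.54) in B cells. It was 0.31 (0.12 to 0.51) in CD4 and 0.28 (0.18 to 0.39) in CD8 T cells. Median log2 ratios over all genes in these classes were 0.04 to 0.09. In NK cells the Itga4 log2 ratio was -0.26 with an interval across 0. Itgb1 moved in both directions. In classical monocytes it was 615 CPM in SCI, against 357 in Sham (log2 ratio 0.78, 95% interval 0.58 to 0.98), and in CD4 T cells it was 61.04 CPM in SCI, against 90.7 in Sham (log2 ratio -0.57, 95% interval -0.81 to -0.33). The CD4 value came with fewer S100a4 barcodes, which were 2.39% of CD4 barcodes in SCI (exact Clopper-Pearson 95% interval 1.42% to 3.75%) and 4.79% in Sham (3.2% to 6.84%), and with less Itgb1 in the Ccr7 or Lef1 barcodes, at 27.6 CPM in SCI against 50.2 CPM in Sham. In B cells Itgb1 was 66.2 CPM in SCI, against 49.4 in Sham (log2 ratio 0.42, 95% interval 0.15 to 0.7). That ratio was 0.00 without the top 5% of barcodes by UMIs, and 3 of 3 plasma cell markers summed to 596 CPM in SCI and 342 CPM in Sham B cells. Their part in the result was not tested. Itgb2 in classical monocytes was 942 CPM in SCI, against 664 in Sham (log2 ratio 0.50, 95% interval 0.35 to 0.66). Icam1, Selplg and Cd44 had no interval clear of 1 in any class with enough UMIs.

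**Figure D5:**
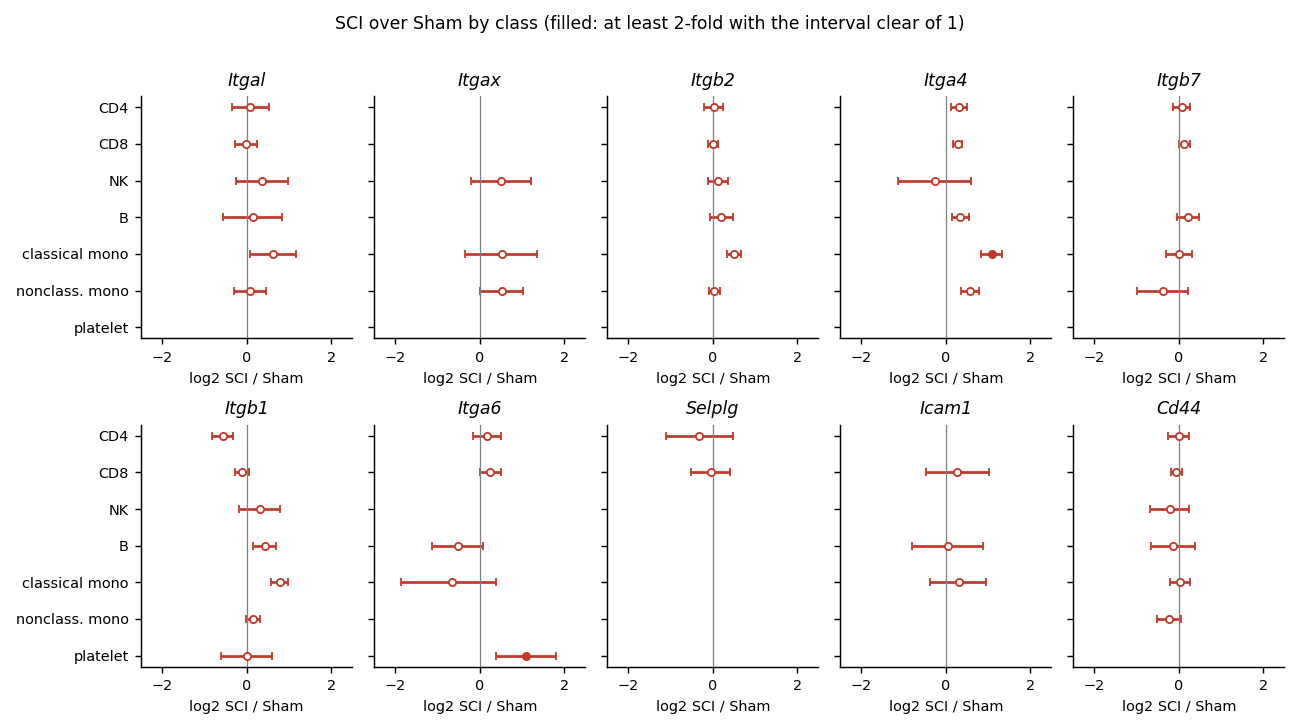
Log2 ratio of SCI over Sham for each member by class, with exact 95% intervals that cover counting error only, for pairs with at least 50 UMIs. Filled points, Itga4 in classical monocytes and Itga6 in platelets, are at least 2-fold with the interval clear of 1.

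For MSC-i.t over SCI, 0 of 46 member pairs were called, with 5.48% of all pairs called. The interval was clear of 1 in 17 of the 46, with 2 higher and 15 lower, where 28.2% of all pairs had one clear of 1, 2696 higher and 6401 lower. Itga4 in classical monocytes was 247 CPM in MSC-i.t, against 413 in SCI (log2 ratio -0.74, 95% interval -1.04 to -0.44). Itgal in nonclassical monocytes was 112 CPM in MSC-i.t, against 196 in SCI (log2 ratio -0.80, 95% interval -1.24 to -0.37). Itgb1 in CD4 T cells was 81.3 CPM in MSC-i.t, against 61.04 in SCI (log2 ratio 0.41, 95% interval 0.19 to 0.64). The directions of Itga4 and Itgb1 turned with Sham in place of SCI, where the log2 ratio of MSC-i.t over Sham was 0.34 for Itga4 in classical monocytes and -0.16 for Itgb1 in CD4 T cells.

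For MSC-i.v over SCI, 1 of 47 was called, with 4.99% of all pairs called, and the interval was clear of 1 in 21, with 3 higher and 18 lower, where 28.3% of all pairs had one clear of 1, 2235 higher and 7474 lower. The called pair was Itga6 in platelets, 275 CPM in MSC-i.v, against 589 in SCI, on 17 and 42 UMIs (log2 ratio -1.10, 95% interval -2.0 to -0.25). Itga4 in classical monocytes was 219 CPM in MSC-i.v, against 413 in SCI (log2 ratio -0.92, 95% interval -1.15 to -0.67), and Itgax in nonclassical monocytes was 66.1 CPM in MSC-i.v, against 124 in SCI (log2 ratio -0.91, 95% interval -1.41 to -0.41). With Sham in place of SCI, the Itga4 log2 ratio in classical monocytes was 0.17. In CD4 T cells, Itgb1 was 117 CPM in MSC-i.v, against 61.04 in SCI (log2 ratio 0.94, 95% interval 0.71 to 1.17). S100a4 barcodes were 6.07% of CD4 barcodes in MSC-i.v (4.39% to 8.14%) and 2.39% in SCI. Median log2 ratios over all genes were -0.09 to -0.17 by class in this comparison, and 6 of 7 erythroid markers found in the gene table, nearly all hemoglobin, summed to 24355 CPM in MSC-i.v CD8 T cells and 7717 CPM in SCI.

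The MSC libraries were also compared with each other and with Sham. For MSC-i.t over MSC-i.v, 1 of 48 was called, with 1.27% of all pairs called. It was Itga4 in NK cells, 22.6 CPM in MSC-i.t, against 60.2 in MSC-i.v, on 14 and 48 UMIs (log2 ratio -1.41, 95% interval -2.39 to -0.53). For MSC-i.t over Sham, 1 of 48 was called, with 0.824% of all pairs called. It was Itga6 in classical monocytes, 8.82 CPM in MSC-i.t, against 28.1 in Sham, on 6 and 48 UMIs (log2 ratio -1.67, 95% interval -3.19 to -0.45). For MSC-i.v over Sham, 0 of 48 were called, with 0.787% of all pairs called. Itgal in nonclassical monocytes was lower in both MSC libraries than in Sham, at 112 CPM in MSC-i.t (log2 ratio -0.71, 95% interval -1.12 to -0.32) and 107 CPM in MSC-i.v (-0.79, -1.14 to -0.43) against 184 CPM in Sham. Doses and routes differ together between the MSC groups, so neither can be told apart from the other.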

How the data were processed

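The deposited files hold UMI counts per gene and barcode for 1 blood library per group, unfiltered with 6794880 barcodes listed. Per the file headers, the authors made them with Cell Ranger 4. The submitters' processing notes name mRatBN7.2 as the build. The protocol in the labels is one for bulk RNA and was not used. Members, gene lists and tests were chosen with earlier results of these data known.

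Counts of kept barcodes were summed per library and class in Python 3.11.15. CD4 and CD8 T cells needed 2 UMIs of Cd3d, Cd3e and Cd3g and a UMI of Cd4 or of Cd8a or Cd8b but not both. NK, B and monocyte barcodes needed 2 detected genes of their marker lists (NK with no Cd3 UMI), monocytes were split by 2 UMIs of Fcnb, Fn1 and Vcan against Fcgr3a and Cx3cr1, and platelets needed 10 UMIs and 3 genes of theirs with no Ptprc. Barcodes meeting several gates were left out as mixed. No doublet caller was run. Erythroid barcodes had at least 50% hemoglobin UMIs, and LOC103694857, unnamed in the RefSeq table, was counted with hemoglobin after its values were seen.

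Class contrasts used edgeR 4.0.16 (TMM, filterByExpr, quasi-likelihood test, library as block), with DESeq2 1.42.0 as an alternative, both in R 4.3.3, and gate markers left out. Whether the libraries are separate animals or pools is not stated, so p-values do not measure the spread between animals. With library as a block, they measure how differences between classes vary over the 4 libraries, pooled over the classes of the fit. Library ratios have exact conditional binomial intervals and levels exact Poisson intervals, and all intervals and the floor of 3 counts cover counting error only. Platelet barcodes held a median of 662 to 708 UMIs. The edgeR contrast of CD8 over CD4 and the ratios of SCI over Sham in classical monocytes were checked on counts simulated from the real sums. The other steps were not checked by simulation.

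All 10 members are named, with the 2 genes most like each in profile (mean of at least 10 CPM) and the 3 adhesion list genes with the largest change in each direction past the threshold, and some genes these rules pick are not reported here. List genes absent from the gene table under the symbol used were not analysed here. Alternatives were DESeq2, no low-count filter, no library block, at most 20% mitochondrial UMIs, no top 5% of barcodes by UMIs, stricter gates, other scalings, a minimum of 20 UMIs, Sham in place of SCI, and leaving out each library. Leaving out CD4 barcodes with plasmacytoid dendritic or platelet markers was chosen after seeing the data.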

Additional observations from a re-analysis of the deposited data

Results flagged for a closer look

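Values of 51 pairs of member and class with enough counts were looked at for a library far from the other 3, and 6 pairs had a gap to the nearest library above the 95% critical value of Dixon's ratio for 4 values. Chance flags about 1 in 20 such sets, and the 4 libraries are 4 different groups. SCI was the distant library in 5 of the 6.

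Itga4 stood high in SCI CD8 T cells, at 129 CPM against 103 to 106 CPM in the other libraries, and in SCI nonclassical monocytes, at 667 CPM against 407 to 449 CPM. Itga6 stood high in SCI platelets, at 589 CPM against 275 to 300.4 CPM, on 42 UMIs in SCI. Cd44 stood low in SCI CD8 T cells, at 79.6 CPM against 82.9 to 83.4 CPM, a difference of a few percent, and in SCI NK cells, at 103 CPM against 118 to 120.4 CPM, where the exact 95% interval of the ratio of SCI over Sham included 1. Itgb2 stood low in MSC-i.v nonclassical monocytes, at 1190.1 CPM against 1436 to 1473 CPM. Erythroid markers summed to 18669 CPM in that class of MSC-i.v, against 5351 to 12171 CPM in the other libraries, and their part in the result was not tested.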

How the results depend on the processing

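No paired analysis was possible because each group has 1 library; the library block of the class contrasts joins classes of 1 library. No called result changed direction where it was recomputed, though smaller differences between libraries did, as given below. The called ratio of MSC-i.v over SCI, Itga6 in platelets, had fewer than 50 UMIs with Sham in place of SCI. It was therefore not recomputed there. Of 577 class log2 folds recomputed, 558 kept their side of the threshold, 14 lost the call and 5 gained one. Of 1229 library ratios 37 moved beyond their interval, mostly with Sham in place of SCI. That change turned the sign of 25 of 92 ratios of an MSC library over SCI. Of these 92, 37 had an interval clear of 1 over SCI, another set of the same size, and 10 of that set turned. Of 490 levels 1 moved, Cd44 in B cells, at 12.8 CPM without the top 5% of barcodes. All genes called for CD8 over CD4 numbered 1532, against 548 without the library block and 1006 without MSC-i.t, and for the CD4 subsets 435, against 230 without Sham. Adhesion list calls without the block were 7 for CD8 over CD4 and 15 for nonclassical over classical monocytes, and for the CD4 subsets 4 with DESeq2 and 4 without barcodes holding a platelet marker UMI. Leaving out each library gave 13 to 23 list calls for nonclassical over classical monocytes, the lowest without MSC-i.v, and 4 to 7 for the CD4 subsets, the lowest without Sham. Members called for SCI over Sham fell to 1 when scaled by the median ratio (Itga4 in classical monocytes lost). For MSC-i.t over SCI 1 was called at 20 UMIs (Itgax in CD8 T cells, 18 and 3 UMIs) and 1 with Sham in place of SCI. For MSC-i.v over SCI 3 were called when scaled by the median (Itgb1 in CD4 T cells and Itga4 in NK cells gained), 2 without the top 5% of barcodes (Itgb1 in CD4 T cells gained), and 0 with Sham in place of SCI. The causes were not tested. Icam1 was called higher in CD8 than CD4 T cells without the top 5% of barcodes (1.21), with stricter gates (0.80) and without SCI (1.22). Platelet barcodes, few and shallow, and 3 to 50 UMIs per library for several NK cell values limit what can be told there.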
